A study of Homo sapiens with 18 samples.

Results

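Selective autophagy receptors are proteins that tie a cargo to the growing autophagosome. The 9 receptor genes described here were SQSTM1, NBR1, OPTN, TAX1BP1, CALCOCO2, CALCOCO1, NCOA4, WDFY3 and TOLLIP, taken by gene symbol from a table of 37096 named genes in HEK293T cells, a readily transfected human embryonic kidney line. All 9 had a row, and all 9 were far above the filter on low values, with between 3.96 and 6.14 log2 above the lowest value of the table on average and never fewer than 407 reads in a library. The 18 poly-A RNA libraries formed 6 groups of 3. Wild-type cells were transfected with the empty vector pLEX or with MethionaseNLS, a methionine-degrading enzyme with a nuclear localisation signal, and kept for 12 h or 24 h. All groups at 12 h, and 1 group per vector at 24 h, had DMSO, the solvent. The remaining pair of groups, at 24 h, had been given Vps34-IN1 at 5 µM for 12 h. Vps34-IN1 inhibits VPS34, the class 3 PI 3-kinase. None of the 6 groups carried an inactive methionase, so a methionase difference is a difference from the empty vector. The labels do not tell how long DMSO was given in each group. Nor do they state whether the replicates are separate cultures. A p-value here therefore speaks only of the spread among these libraries, which may be technical.

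In selective autophagy, a receptor binds its cargo, often through ubiquitin chains on it, and binds ATG8 proteins (the LC3 and GABARAP families) on the autophagosome membrane. VPS34 makes phosphatidylinositol 3-phosphate, the lipid on which autophagosome formation depends. The receptors are degraded together with the cargo, so the protein amount of a receptor such as p62 is widely read as a gauge of autophagic flux. The present values are RNA levels and hold no information on the proteins.

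The libraries held between 18278586 and 20825232 reads on named genes. The markers of this line that were looked up (VIM, KRT8, KRT18, PAX2, NEFM and LIN28B) were present in every library, with VIM, the mesenchymal vimentin, between 9852 and 14069 and PAX2, the lowest, between 99.09 and 190.3 normalised reads. Markers of other cell types were near 0, with a highest value of 20.31 for ALB (hepatocytes), 4.061 for PECAM1 (endothelium) and 1.878 for MYH7 (muscle). PTPRC, HBB and INS were looked up too and had no row among the named genes. The share of reads on the mitochondrial rRNA genes differed between the groups. It was 0.24% ± 0.0452 with empty vector and 0.355% ± 0.0295 with methionase at 12 h, 0.548% ± 0.0956 and 1.49% ± 0.536 at 24 h in DMSO, and 1.2% ± 0.193 and 2.18% ± 0.288 in Vps34-IN1 (SD, n = 3). The part of this share in the results was not tested.

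The 250 bases before the start of 5 receptor genes are given because 4 of these genes rose together with the drug in empty vector cells and the fifth, TOLLIP, had the largest methionase difference. The windows come from RefSeq (GRCh38.p14) and lie at chr5:179820655-179820904 (plus strand), chr17:43170159-43170408 (plus), chr7:27739912-27740161 (plus), chr10:46030624-46030873 (minus) and chr11:1309633-1309882 (minus). Each is written 5′ to 3′ in the direction of transcription, and capitals mark a match to a motif that was searched.
SQSTM1: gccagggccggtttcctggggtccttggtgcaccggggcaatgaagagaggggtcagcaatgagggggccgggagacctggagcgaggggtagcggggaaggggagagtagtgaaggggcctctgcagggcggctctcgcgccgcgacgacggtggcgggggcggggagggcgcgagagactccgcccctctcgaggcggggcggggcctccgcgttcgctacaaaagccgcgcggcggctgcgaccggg
NBR1: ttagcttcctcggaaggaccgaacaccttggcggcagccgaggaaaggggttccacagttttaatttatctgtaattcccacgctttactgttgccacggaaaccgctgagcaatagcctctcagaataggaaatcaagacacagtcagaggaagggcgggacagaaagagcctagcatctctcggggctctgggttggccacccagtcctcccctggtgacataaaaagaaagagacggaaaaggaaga
TAX1BP1: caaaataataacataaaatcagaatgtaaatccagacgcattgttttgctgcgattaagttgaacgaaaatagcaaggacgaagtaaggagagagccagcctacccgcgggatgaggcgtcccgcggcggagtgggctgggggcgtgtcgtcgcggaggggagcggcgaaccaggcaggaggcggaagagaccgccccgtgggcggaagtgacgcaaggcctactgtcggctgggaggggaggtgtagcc
NCOA4: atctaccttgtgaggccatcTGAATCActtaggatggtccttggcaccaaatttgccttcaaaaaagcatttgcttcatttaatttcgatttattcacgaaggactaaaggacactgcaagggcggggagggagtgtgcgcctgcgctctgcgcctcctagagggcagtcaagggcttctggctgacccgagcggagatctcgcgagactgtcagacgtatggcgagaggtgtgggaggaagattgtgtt
TOLLIP: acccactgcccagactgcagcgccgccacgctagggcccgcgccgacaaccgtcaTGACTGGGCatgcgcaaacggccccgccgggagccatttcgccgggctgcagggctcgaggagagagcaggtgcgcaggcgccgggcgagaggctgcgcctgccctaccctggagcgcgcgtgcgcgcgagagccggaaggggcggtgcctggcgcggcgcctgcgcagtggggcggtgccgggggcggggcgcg

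The search covered windows from 250 bases before to 50 bases after a start, on both strands, for 14 starts of the 7 receptor genes with a RefSeq promoter entry. These exclude WDFY3 and CALCOCO1. The E-box CACGTG was in 7.3% of 35116 promoters of the same length and in none of the 14 windows. The amino acid response element, searched as TGATGNAA, was in 3.6% of the promoters and in none of the 14 windows. The AP-1 site TGANTCA was in 7.7% of promoters and was matched by TGAATCA, 230 bases before an NCOA4 start. The antioxidant response element TGACNNNGC was in 13.3% of promoters. It was matched by TGACTGGGC 195 bases before a TOLLIP start, by TGACAGTGC 23 bases after another NCOA4 start and by GCCCGGTCA, on the opposite strand, 129 bases before the CALCOCO2 start. None of the windows of SQSTM1, NBR1, TAX1BP1 or OPTN held any of these 4 motifs, which says only that these letters are not in these windows.

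Levels are given as normalised reads, which are the read counts of a library divided by its size factor. Between genes, levels were compared per kilobase of exon (GENCODE gene models). On that scale NCOA4 was highest, with a mean over all libraries of 670.9 normalised reads per kilobase. TAX1BP1 (327.9), NBR1 (325.9), SQSTM1 (303.1) and CALCOCO2 (299.8) formed a close group. CALCOCO1 (132.6), OPTN (130.5) and TOLLIP (109) were lower, and WDFY3 (35.41), a very long transcript, was lowest. Levels varied little across the 6 groups. The ratio of the highest to the lowest group mean ran from 1.138 for CALCOCO2 to 1.756 for TOLLIP. The empty vector group in Vps34-IN1 had the highest mean of the 6 for SQSTM1, NBR1, TAX1BP1, NCOA4 and TOLLIP. For SQSTM1, NBR1 and TOLLIP its 3 libraries lay above every other library, while for TAX1BP1 and NCOA4 a methionase library in Vps34-IN1 reached into its range. At the other end of the order, NBR1 was lowest in empty vector cells in DMSO at 24 h, clear of every other group. NCOA4 had its lowest mean with methionase in DMSO at 24 h, although 1 methionase library in Vps34-IN1, at 2153, lay lower still. For TOLLIP the 2 methionase groups at 24 h overlapped each other and lay below all others. For OPTN, CALCOCO2, CALCOCO1 and WDFY3 every group overlapped its neighbour in the order of levels.

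**Figure D1:**
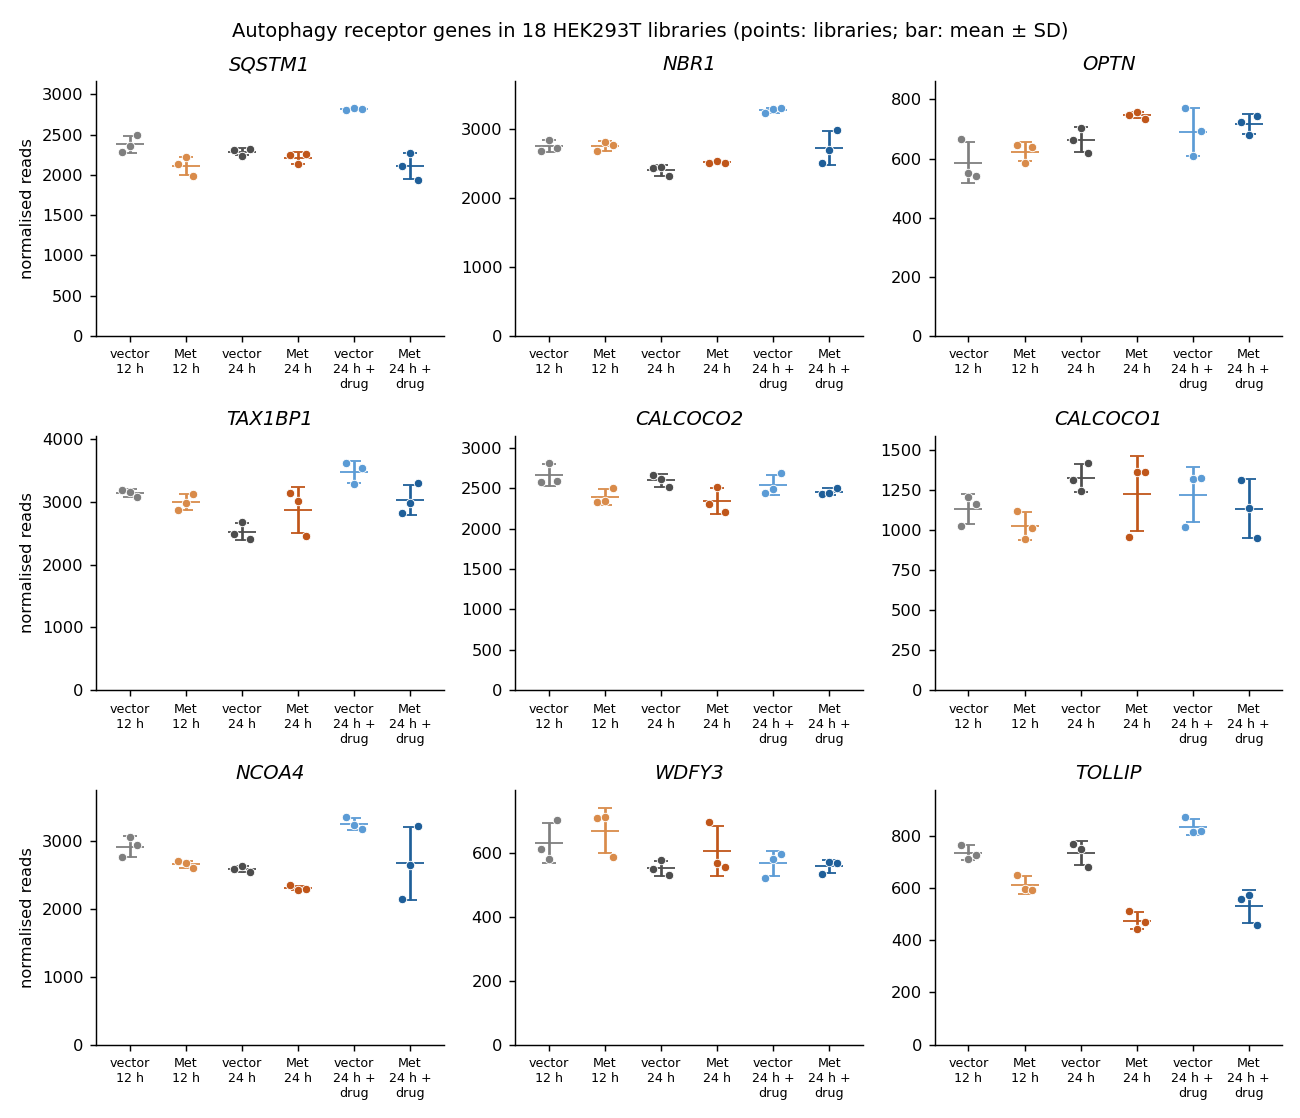
Normalised reads of the 9 receptor genes (vertical axis, linear, from 0) in each of the 6 groups; points are libraries, and bars are the mean ± SD of 3. In SQSTM1, NBR1, TAX1BP1, NCOA4 and TOLLIP the empty vector group in Vps34-IN1 (light blue) has the highest mean, and TOLLIP is low in the methionase groups at 24 h (means 474.5 and 528.6).

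Differences were tested with limma across all 17755 genes that passed the filter, and calls were made where the Benjamini-Hochberg adjusted p was below 0.05. With Vps34-IN1 in empty vector cells 4 of the 9 receptor genes rose and none fell, where 20.2% of all genes tested were called higher and 19.9% lower. The 4 were SQSTM1, NBR1, TAX1BP1 and NCOA4. In either direction, 4 of 9 was close to the background of 40.1%, so the count alone does not set the receptor genes apart. The drug and DMSO libraries did not overlap for 5 of 9, against 52.4% of all genes. As these are bulk samples, a change in the mix of cells and a change of RNA per cell cannot be told apart. In methionase cells limma called 0 of 9 with the drug (1 at an unadjusted p below 0.05, and 0 with voom), where 2.95% of all genes were called higher, 4.98% lower and 7.93% in either direction. The libraries did not overlap for 0 of 9, against 19.6%. The test of the interaction called 3 of 9 lower, which means a smaller drug effect in methionase cells, where 11.9% of all genes were called lower, 9.92% higher and 21.8% in either direction.

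With methionase in the presence of the drug 5 of 9 were lower than with empty vector and none was higher, where 22.2% of all genes were called lower, 17.3% higher and 39.5% in either direction. The 5 were SQSTM1, NBR1, TAX1BP1, NCOA4 and TOLLIP, and the libraries did not overlap for 3 of 9, against 44.6% of all genes. In DMSO at 24 h 1 of 9, TOLLIP, was lower and none was higher, where 21.1% of all genes were called lower, 18.1% higher and 39.2% in either direction, and 4 of 9 did not overlap, against 48.6%. In DMSO at 12 h limma called 0 of 9 (3 at an unadjusted p below 0.05, and 0 with voom). There 1.49% of all genes were called lower, 0.681% higher and 2.17% in either direction, a share that rests on 385 genes and fell to 18 genes without methionase DMSO 12 h replicate 2, and 4 of 9 did not overlap, against 29.5%. The median log2 difference of the 9 genes was 0.17 for the drug in empty vector cells, against 0.00 over all genes tested, and -0.20 for methionase in the drug, against 0.01. With quantile normalization the latter median was -0.09, and 4 of 9 differences were positive in place of 1 of 9. The empty vector libraries in Vps34-IN1 enter the drug comparison, the methionase comparison in the drug and the interaction, so these 3 results are not independent of each other.

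SQSTM1 encodes p62, which binds ubiquitin chains and ATG8 proteins, gathers cargo into condensates and also holds the NRF2 inhibitor KEAP1. The gene lies on chromosome 5 at 179806398 to 179838078 (plus strand, GRCh38). In empty vector cells at 24 h its level was 2315, 2240 and 2317 normalised reads in DMSO and 2808, 2828 and 2821 in Vps34-IN1. All 3 drug libraries lay above all 3 DMSO libraries, and the mean rose by 23.1% (log2 difference 0.29 ± 0.06 SE, adjusted p = 0.0004427). In methionase cells the values were 2242, 2130 and 2259 in DMSO and 2110, 2271 and 1942 in Vps34-IN1. These overlapped, with a log2 difference of -0.07 (95% interval -0.19 to 0.06, adjusted p = 0.5358). The drug effects in the 2 vectors differed by -0.36 ± 0.08 log2 (adjusted p = 0.00362). In the presence of the drug SQSTM1 was 25.2% lower with methionase than with empty vector (-0.41 ± 0.06, adjusted p = 1.01e-05), with no overlap of the libraries. In DMSO at 12 h the methionase libraries (2130, 2217 and 1991) were all below the empty vector libraries (2286, 2354 and 2500), but the difference of -0.17 ± 0.06 log2 was not called (adjusted p = 0.1406).

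NBR1, on chromosome 17 at 43170481 to 43211689 (plus strand), encodes a receptor that resembles p62 in its domains and takes part in the clearance of ubiquitinated aggregates and peroxisomes. Its level in empty vector cells at 24 h was 2436, 2449 and 2315 normalised reads in DMSO and 3234, 3287 and 3303 in Vps34-IN1. The groups were far apart, and the mean rose by 36.4% (0.44 ± 0.06 log2, adjusted p = 2.469e-06). With methionase the levels were 2504, 2541 and 2507 in DMSO and 2503, 2697 and 2995 in the drug. The drug libraries with methionase were widely spread, and the difference of 0.11 log2 was not called (95% interval -0.01 to 0.23, adjusted p = 0.26). The drug effect was smaller with methionase than with empty vector (interaction -0.32 ± 0.08 log2, adjusted p = 0.005971). In the drug, methionase cells had 16.6% less NBR1 RNA (-0.26 ± 0.06 log2, adjusted p = 0.001113), and in DMSO the vectors differed by 0.07 ± 0.06 log2 at 24 h (adjusted p = 0.3839).

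TAX1BP1, on chromosome 7 at 27739331 to 27844564 (plus strand), encodes a ubiquitin-binding receptor known for the clearance of protein aggregates and for restraint of inflammatory signalling. In empty vector cells at 24 h it stood at 2487, 2673 and 2403 normalised reads in DMSO and at 3619, 3282 and 3532 in Vps34-IN1. The libraries did not overlap, and the mean rose by 38% (0.45 ± 0.08 log2, adjusted p = 4.396e-05). With methionase the levels were 3145, 3014 and 2450 in DMSO and 2812, 2980 and 3291 in the drug, which overlapped (0.08 log2, 95% interval -0.08 to 0.24, adjusted p = 0.5694). The interaction was -0.37 ± 0.11 log2 (adjusted p = 0.01443). In the presence of the drug TAX1BP1 was 12.9% lower with methionase (-0.20 ± 0.08 log2, adjusted p = 0.04163), although 1 methionase library, at 3291, lay above the lowest empty vector library, at 3282. This call was lost under 6 of the 8 alternatives (adjusted p up to 0.3029 with quantile normalization). It was also lost without empty vector DMSO 24 h replicate 1 (0.05072), empty vector Vps34-IN1 replicate 1 (0.136) or 3 (0.1035), or methionase Vps34-IN1 replicate 1 (0.1796) or 2 (0.08961). In DMSO at 24 h methionase cells averaged 2870 against 2521 normalised reads (0.17 ± 0.08 log2, adjusted p = 0.06985). This became a call without methionase DMSO 24 h replicate 3, the low library at 2450 (0.28 ± 0.07 log2, adjusted p = 0.002742), and with quantile normalization (0.0143) or equal library medians (0.03193).

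OPTN and CALCOCO2 encode further ubiquitin-binding receptors, optineurin and NDP52, both known for the removal of damaged mitochondria and of bacteria. Neither was called in the drug or the methionase comparisons. OPTN, on chromosome 10 at 13099449 to 13138308 (plus strand), had 664, 705 and 620 normalised reads in empty vector cells in DMSO at 24 h and 770, 609 and 693 in the drug. The methionase libraries had 747, 756 and 735 in DMSO and 725, 678 and 743 in the drug. The drug difference was 0.05 log2 with empty vector (95% interval -0.11 to 0.21) and -0.06 with methionase (-0.22 to 0.11). In DMSO at 24 h all 3 methionase libraries lay above the empty vector libraries (0.15 ± 0.08 log2, adjusted p = 0.1232). This was called with quantile normalization (0.23 ± 0.08, 0.02121) and with equal library medians (0.19 ± 0.08, 0.04957). CALCOCO2, on chromosome 17 at 48830988 to 48866522 (plus strand), was the least variable of the 9 genes. It had 2664, 2613 and 2512 normalised reads in empty vector cells in DMSO at 24 h and 2441, 2492 and 2684 in the drug, a difference of -0.03 log2 (95% interval -0.16 to 0.09). Its methionase libraries in DMSO at 24 h were at 2299, 2520 and 2201, a difference from empty vector of -0.15 ± 0.06 log2 (adjusted p = 0.05492). That value was called with a stricter filter (0.04693), without methionase DMSO 24 h replicate 2 (-0.20 ± 0.06, 0.01827) and without methionase Vps34-IN1 replicate 3 (0.04564).

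NCOA4 encodes the receptor that delivers ferritin, the iron store, to lysosomes. The gene lies on chromosome 10 at 46005088 to 46030714 (minus strand). In empty vector cells at 24 h its level was 2590, 2635 and 2549 normalised reads in DMSO and 3355, 3234 and 3187 in Vps34-IN1. The drug libraries were all higher, and the mean rose by 25.7% (0.32 ± 0.08 log2, adjusted p = 0.003828). In methionase cells the DMSO libraries were at 2350, 2279 and 2303, while the drug libraries ran from 2153 through 2653 to 3220, the widest spread of any receptor gene in any group (SD 0.281 log2). The drug difference with methionase was 0.19 log2 (95% interval 0.01 to 0.36, adjusted p = 0.1798). The interaction was -0.13 ± 0.12 log2 (adjusted p = 0.4611), so a different drug effect in the 2 vectors was not shown for NCOA4. In the drug, methionase cells were lower by 17.9% (-0.29 ± 0.08 log2, adjusted p = 0.00763), with overlap. With quantile normalization that call was lost (-0.17 ± 0.08, adjusted p = 0.09953). It also rested on methionase Vps34-IN1 replicate 1, the library at 2153. Without it the methionase difference was -0.15 ± 0.07 (adjusted p = 0.09261), and NCOA4 rose with the drug in methionase cells too (0.33 ± 0.07, adjusted p = 0.003933). Without replicate 3 of that group, the library at 3220, the interaction was called (-0.27 ± 0.09, adjusted p = 0.03087). The NCOA4 level in DMSO at 24 h was lower in all 3 methionase libraries than in the empty vector libraries (-0.16 ± 0.08 log2), which was not called (adjusted p = 0.1389) except in a fit of only the groups compared (0.04122) or without methionase Vps34-IN1 replicate 1 (0.04066) or 3 (0.03858).

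CALCOCO1, on chromosome 12 at 53708517 to 53727745 (minus strand), encodes a receptor for the endoplasmic reticulum and the Golgi apparatus. Its differences had the largest standard error of the 9 genes, 0.12 log2. In DMSO at 24 h the level was 1313, 1248 and 1423 normalised reads with empty vector and 958, 1364 and 1366 with methionase. In Vps34-IN1 it was 1024, 1321 and 1327 with empty vector and 1316, 1143 and 950 with methionase. All of these groups overlapped. The drug differences were -0.12 log2 with empty vector (95% interval -0.36 to 0.12) and -0.10 with methionase (-0.34 to 0.14). A rise of the size seen for NBR1 lies outside both intervals. WDFY3, on chromosome 4 at 84669610 to 84966391 (minus strand), encodes ALFY, a large scaffold that binds phosphatidylinositol 3-phosphate and joins p62-positive aggregates to the autophagy machinery. It had 548, 576 and 530 normalised reads in empty vector cells in DMSO at 24 h and 522, 581 and 596 in the drug (0.03 log2, 95% interval -0.14 to 0.21). With methionase it had 695, 567 and 556 in DMSO and 534, 571 and 567 in the drug (-0.10 log2, 95% interval -0.27 to 0.07).

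**Figure D2:**
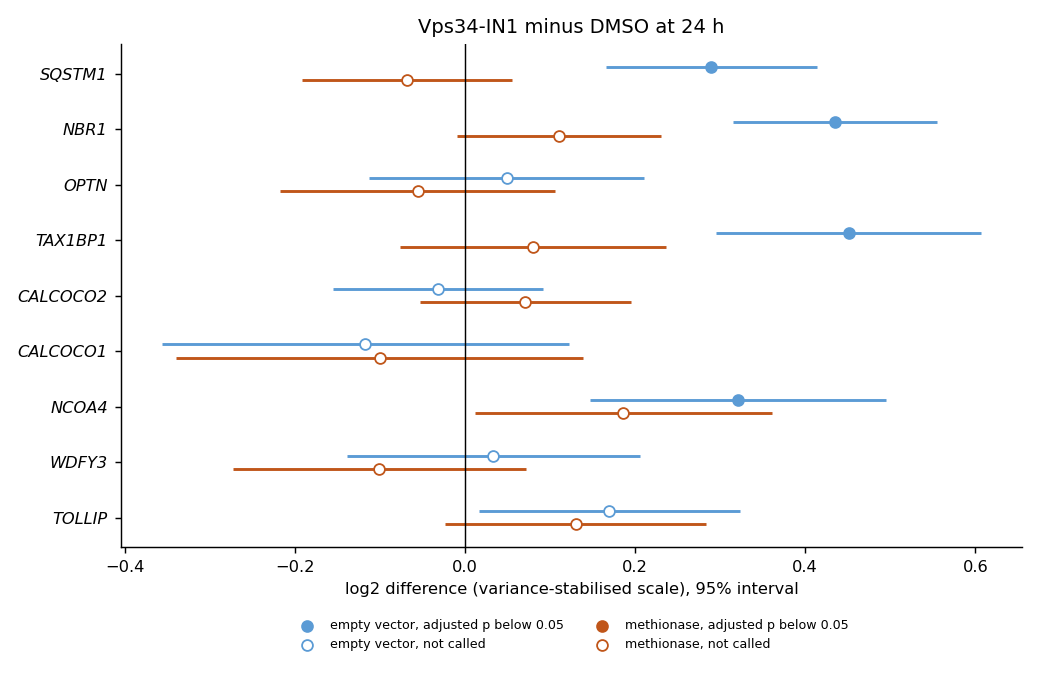
Log2 difference between Vps34-IN1 and DMSO at 24 h (horizontal axis, variance-stabilised scale) for each receptor gene in empty vector (blue) and methionase cells (orange); lines are 95% intervals and filled points are called. SQSTM1, NBR1, TAX1BP1 and NCOA4 are called with empty vector (0.29 to 0.45 log2), and no gene is called with methionase.

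TOLLIP encodes a ubiquitin-binding adaptor that is known both as a receptor for aggregate-prone proteins and as a brake on Toll-like receptor signalling. It lies on chromosome 11 at 1274371 to 1309654 (minus strand) and showed the largest methionase difference of the 9 genes. Its level in DMSO at 24 h was 768, 750 and 679 normalised reads with empty vector and 510, 443 and 470 with methionase. The groups were far apart, and TOLLIP fell with methionase by 35.2% (-0.55 ± 0.07 log2, adjusted p = 3.088e-06). In Vps34-IN1 the levels were 870, 812 and 818 with empty vector and 556, 574 and 456 with methionase, 36.6% lower (-0.59 ± 0.07 log2, adjusted p = 1.472e-06). The interaction with the drug was -0.04 log2 (95% interval -0.26 to 0.18, adjusted p = 0.8327), so a difference between the 2 falls was not shown. At 12 h the methionase libraries (650, 594 and 590) were also all below the empty vector libraries (765, 710 and 726), by 16.7%, but this was not called (-0.24 ± 0.07 log2, adjusted p = 0.09223). It was called in a fit of only the groups compared (0.01912) and without methionase Vps34-IN1 replicate 3 (0.03755). The methionase difference at 24 h exceeded that at 12 h by -0.31 ± 0.11 log2, which was not called (adjusted p = 0.05323) but was called in 9 of 26 alternative fits, with an adjusted p between 0.01989 and 0.1478. Among these were the fits without empty vector DMSO 24 h replicate 3 (0.03715), methionase DMSO 24 h replicate 1 (0.03746) or any of the 3 methionase Vps34-IN1 libraries (0.01989 to 0.04765). With the drug in empty vector cells all 3 TOLLIP libraries lay above the DMSO libraries (0.17 ± 0.07 log2, adjusted p = 0.07167), a difference called in 4 of 26 alternative fits, among them the one without methionase Vps34-IN1 replicate 3 (0.03293). TOLLIP-DT, the divergent non-coding transcript beside TOLLIP, was named after its values were seen. It rose with methionase in DMSO at 24 h (0.41 ± 0.10 log2, adjusted p = 0.001995) and with the drug in empty vector cells (0.50 ± 0.10, adjusted p = 0.0003378), at a mean level of 51.33 normalised reads. It differed by -0.08 ± 0.10 with methionase in the drug (adjusted p = 0.5444) and by 0.00 ± 0.10 with the drug in methionase cells (adjusted p = 0.997), and its interaction was called (-0.50 ± 0.14, adjusted p = 0.01364).

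**Figure D3:**
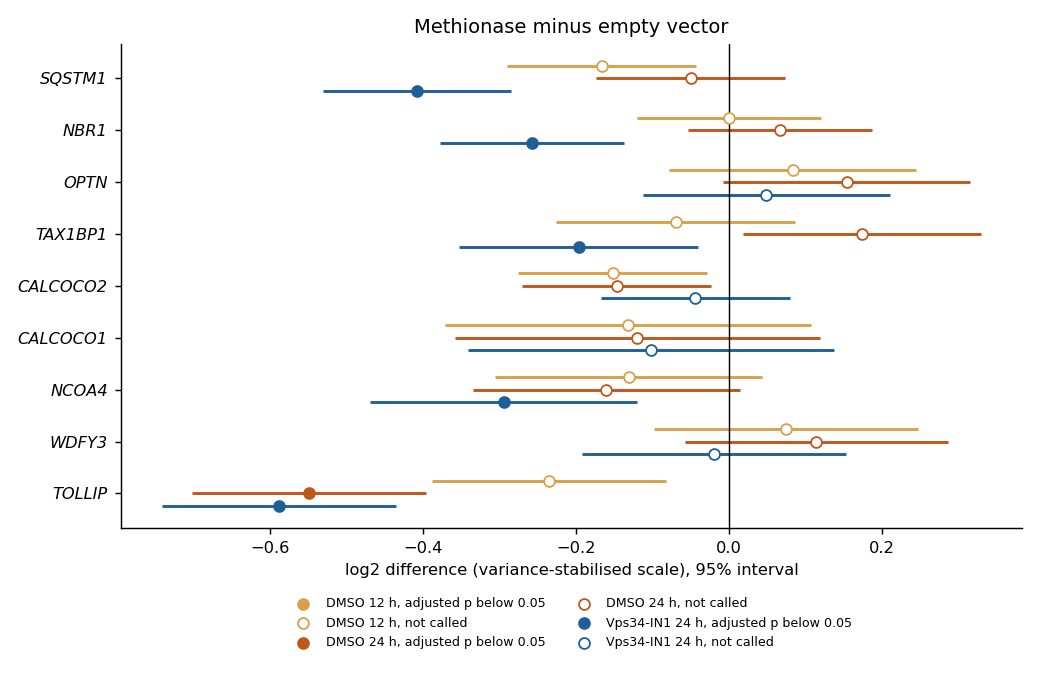
Log2 difference between methionase and empty vector (horizontal axis, variance-stabilised scale) for each receptor gene in DMSO at 12 h (yellow), DMSO at 24 h (orange) and Vps34-IN1 at 24 h (blue); lines are 95% intervals and filled points are called. TOLLIP is called at 24 h with and without the drug (-0.55 and -0.59 log2), while SQSTM1, NBR1, TAX1BP1 and NCOA4 are called in the drug (-0.41 to -0.20 log2) and not in DMSO.

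Between 12 h and 24 h in DMSO, limma called 2 of 9 lower with empty vector, where 6.88% of all genes were called lower, 4.61% higher and 11.5% in either direction. The libraries of the 2 times did not overlap for 5 of 9, against 36.1%. TAX1BP1 fell from 3193, 3156 and 3076 normalised reads to 2487, 2673 and 2403, a drop of 19.8% (-0.31 ± 0.08 log2, adjusted p = 0.01031, and 0.05004 without empty vector DMSO 24 h replicate 1). NBR1 fell from 2688, 2847 and 2733 to 2436, 2449 and 2315 (-0.19 ± 0.06, adjusted p = 0.0329). The NBR1 call was lost under 3 of the 8 alternative settings and in 5 of 18 fits that left out a library, namely empty vector DMSO 12 h replicate 2 or 3 or any of the empty vector DMSO 24 h libraries (adjusted p 0.05632 to 0.1318). With methionase, 1 of 9 was called higher and 1 lower, where 18.4% of all genes were called higher, 21.3% lower and 39.8% in either direction, and 4 of 9 did not overlap, against 50%. OPTN rose from 645, 586 and 640 to 747, 756 and 735 (0.23 ± 0.08, adjusted p = 0.02084). That call was lost without methionase DMSO replicate 2 at 12 h (0.09571) or 24 h (0.05432). TOLLIP fell from 650, 594 and 590 to 510, 443 and 470 (-0.32 ± 0.07, adjusted p = 0.001512), while its empty vector levels differed by 0.00 ± 0.07 log2. Without methionase DMSO 24 h replicate 1, CALCOCO1 (0.39 ± 0.11, adjusted p = 0.007651) and WDFY3 (-0.22 ± 0.08, 0.04633) were called too. NCOA4, at -0.20 ± 0.08 log2 (adjusted p = 0.06781), was called in a fit of only the groups compared (0.01368). It was also called without methionase Vps34-IN1 replicate 1 (0.01305) or 3 (0.01232). NBR1, at -0.13 ± 0.06 (adjusted p = 0.08766), was called without methionase Vps34-IN1 replicate 3 (0.04193). The methionase by time interaction called 0 of 9 (2 at an unadjusted p below 0.05, TOLLIP and TAX1BP1, and 1 with voom), where 5.33% of all genes were called higher, 6.33% lower and 11.7% in either direction. It called TAX1BP1 without methionase DMSO 24 h replicate 3 (0.35 ± 0.09, adjusted p = 0.01457).

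The genes share some sequence with neighbours. The strand setting of the counting is not given in the sources used here, and where genes on opposite strands overlap their reads could have been mixed. SQSTM1 overlaps 2 genes on the opposite strand, MRNIP by 2946 bases and MGAT4B by 555. MRNIP, with a mean of 217 normalised reads, was higher with methionase in the drug (0.25 ± 0.09 log2, adjusted p = 0.03326), where SQSTM1 was lower. With the drug in empty vector cells MRNIP differed by 0.16 ± 0.09 (adjusted p = 0.1753), and its interaction was 0.12 ± 0.13 (adjusted p = 0.5478). MGAT4B, with a mean of 2250 normalised reads, rose with the drug in empty vector cells by 0.17 ± 0.05 log2 (adjusted p = 0.01684). Its interaction was -0.02 ± 0.08 (adjusted p = 0.9169). TAX1BP1 overlaps JAZF1 by 13992 bases, and JAZF1, with a mean of 349 normalised reads, differed by 0.02 ± 0.07 log2 with the drug in empty vector cells (adjusted p = 0.8485). JAZF1 was higher with methionase in DMSO at 24 h (0.21 ± 0.07, adjusted p = 0.02525). There TAX1BP1 had a difference of the same sign that was not called, and a part of mixed reads in it was not tested. The JAZF1 interaction was -0.17 ± 0.11 (adjusted p = 0.283). For NCOA4, TOLLIP, CALCOCO1 and CALCOCO2 the annotation lists no overlapping gene. Processed copies of SQSTM1 and NCOA4 in the table (SQSTM1P1, NCOA4P1, NCOA4P2 and NCOA4P4) averaged at most 0.3897 normalised reads.

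Across the 18 libraries, which share their groups and size factors, NBR1 went most closely with TAX1BP1 (Pearson r 0.849) and NCOA4 (0.833), and SQSTM1 went most closely with TOLLIP (0.744). CALCOCO1 and TAX1BP1 had the lowest r of any pair of receptor genes, -0.508. Over 13528 protein-coding genes compared, the gene most like SQSTM1 was ORC1 (r 0.937). The nearest to NBR1 was CSNK1G1 (0.94), to TAX1BP1 CERS6 (0.941), to NCOA4 NET1 (0.925) and to TOLLIP KCTD5 (0.975). OPTN was nearest to FOXO4 (0.903), CALCOCO2 to ING3 (0.811) and WDFY3 to UTRN (0.878). The 99th percentile of r over the genes compared was 0.819 for SQSTM1, 0.826 for NBR1, 0.794 for TAX1BP1, 0.799 for NCOA4 and 0.86 for TOLLIP. It was 0.748 for OPTN, 0.642 for CALCOCO2 and 0.651 for WDFY3. The r of 0.744 between SQSTM1 and TOLLIP lay below the percentile of either gene. These values describe libraries that are not independent points, since 3 share each group.

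Genes around the receptors were taken from 4 lists, and a count of called genes is given for each. The ATG8 family holds the membrane partners of the receptors, and 5 of its 7 genes were tested. With the drug in empty vector cells 2 of 5 rose and none fell, against 20.2% of all genes tested higher and 19.9% lower. GABARAPL1 rose by 1.31 ± 0.12 log2 (adjusted p = 1.267e-08), and MAP1LC3B rose by 0.35 ± 0.07 (0.0003317). In methionase cells limma called 0 of 5 with the drug (3 at an unadjusted p below 0.05), against 7.93% of all genes in either direction. The interaction called 3 of 5 lower, against 11.9% of all genes, with -1.27 ± 0.17 for GABARAPL1 (adjusted p = 1.328e-05) and -0.43 ± 0.10 for MAP1LC3B (0.002816). With methionase 3 of 5 were higher in DMSO at 24 h, against 18.1% of all genes, including GABARAPL1 (0.92 ± 0.12) and MAP1LC3C (0.40 ± 0.10), and 2 of 5 were lower in the drug, against 22.2%, namely MAP1LC3B (-0.26 ± 0.07) and GABARAPL1 (-0.35 ± 0.12). At 12 h limma called 0 of 5 (2 at an unadjusted p below 0.05), against 2.17% of all genes in either direction. The list's median was 0.14 for the drug in empty vector cells, against 0.00 over all genes tested.

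The second list held 17 further receptors, most of them for mitochondria or the endoplasmic reticulum. Lower with methionase were 3 of 17 at 12 h, against 1.49% of all genes, 8 at 24 h in DMSO, against 21.1%, and 10 in the drug, against 22.2%. The 1 called higher was FUNDC1 in the drug (0.24 ± 0.07 log2, adjusted p = 0.005746), a comparison that called 17.3% of all genes higher. BNIP3L, a mitophagy receptor, fell at 12 h (-0.57 ± 0.09, adjusted p = 0.002608), as did its relative BNIP3 (-0.66 ± 0.13, 0.01219). At 24 h in DMSO the lowest adjusted p values were those of ATL3 (-0.54 ± 0.07, 1.058e-06) and TEX264 (-0.48 ± 0.07, 8.845e-06), both receptors for the endoplasmic reticulum. In the drug they were those of RETREG3 (-0.75 ± 0.08, 1.116e-07) and ATL3 (-0.54 ± 0.07, 1.349e-06). With the drug in empty vector cells 3 of 17 rose, against 20.2% of all genes, among them BCL2L13 (0.44 ± 0.07) and the chaperonin subunit CCT2 (0.36 ± 0.07), and 4 fell, against 19.9%, among them BNIP3 (-0.71 ± 0.13) and BNIP3L (-0.41 ± 0.09). In methionase cells 1 of 17 rose with the drug, CCT2, against 2.95% of all genes, and 1 fell, STBD1, against 4.98%. The interaction called 2 of 17 higher, against 9.92% of all genes, BNIP3 (0.54 ± 0.19, adjusted p = 0.0437) and TEX264 (0.28 ± 0.10, 0.04663). It called 4 lower, against 11.9%, BCL2L13 (-0.45 ± 0.10, 0.001613), CCPG1 (-0.53 ± 0.13, 0.005985), RETREG3 (-0.39 ± 0.11, 0.01485) and STBD1 (-0.45 ± 0.14, 0.02472). The list's median was -0.29 for methionase in the drug, against 0.01 over all genes.

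The third list held 14 genes taken as regulators of autophagy receptors, most of them kinases, adaptors and ubiquitin enzymes. With methionase 7 of 14 were lower and 2 higher at 24 h in DMSO, against 21.1% and 18.1% of all genes. In the drug 10 were lower and 1 higher, against 22.2% and 17.3%. At 12 h limma called 0 of 14 (3 at an unadjusted p below 0.05), against 2.17% of all genes in either direction. TBK1, the kinase that phosphorylates OPTN and p62, was lower with methionase in the drug (-0.76 ± 0.08 log2, adjusted p = 8.697e-08), as was TANK, one of its adaptors (-0.56 ± 0.07, 6.681e-07). In DMSO at 24 h KEAP1 fell (-0.55 ± 0.07, 3.074e-06), as did USP8 (-0.52 ± 0.08, 1.308e-05), while TBKBP1 (0.44 ± 0.07) and FBXL4 (0.33 ± 0.07) rose. TBK1 was lower there too (-0.51 ± 0.08, 1.708e-05), and TANK was not called (-0.07 ± 0.07, 0.463). With methionase in the drug USP8 was lower as well (-0.48 ± 0.08, 3.634e-05), and KEAP1 was not called (0.15 ± 0.07, 0.1068). With the drug in empty vector cells 5 of 14 rose, against 20.2% of all genes, among them TANK (0.33 ± 0.07) and FBXL4 (0.29 ± 0.07), and 2 fell, against 19.9%, KEAP1 (-0.71 ± 0.07, adjusted p = 7.727e-08) and ULK1 (-0.22 ± 0.09). In methionase cells 1 of 14 fell with the drug, against 4.98% of all genes, TBK1 (-0.26 ± 0.08, adjusted p = 0.04182). None rose, against 2.95%. The interaction called 1 of 14 higher, against 9.92% of all genes, KEAP1 (0.70 ± 0.11, adjusted p = 4.4e-05). It called 3 lower, against 11.9%, among them TANK (-0.50 ± 0.09, 0.0005657) and FBXL4 (-0.40 ± 0.10, 0.004835). For TBK1 it was not called (-0.26 ± 0.11, 0.1064). The list's median was -0.30 for methionase in the drug and -0.20 in DMSO at 24 h, each against 0.01 over all genes.

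The fourth list held 10 genes of ferritin and iron handling, the cargo pathway of NCOA4. With the drug in empty vector cells 5 of 10 rose, against 20.2% of all genes, among them the ferritin light chain FTL (0.36 ± 0.08 log2, adjusted p = 0.0005431) and PCBP2 (0.22 ± 0.06), and 1 fell, against 19.9%, the iron exporter SLC40A1 (-0.95 ± 0.09, 3.733e-08). In methionase cells 3 of 10 fell with the drug, against 4.98% of all genes, including IREB2 (-0.29 ± 0.07) and SLC40A1 (-0.34 ± 0.09), and none rose. The interaction called 1 of 10 higher, against 9.92% of all genes, SLC40A1 (0.61 ± 0.13, adjusted p = 0.001873). It called 2 lower, against 11.9%, FTL (-0.39 ± 0.11, 0.009538) and SLC11A2 (-0.40 ± 0.09, 0.0024). The transferrin receptor TFRC was lower with methionase at 12 h (-0.51 ± 0.07, adjusted p = 0.0006849), at 24 h in DMSO (-0.74 ± 0.07, 2.751e-08) and in the drug (-0.78 ± 0.07, 2.19e-08). At 24 h in DMSO 3 of 10 were lower and 3 higher, against 21.1% and 18.1% of all genes, the latter including FTL (0.43 ± 0.08, 7.169e-05) and PCBP1 (0.26 ± 0.06), and in the drug 4 were lower and none higher, against 22.2% and 17.3%.

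**Figure D4:**
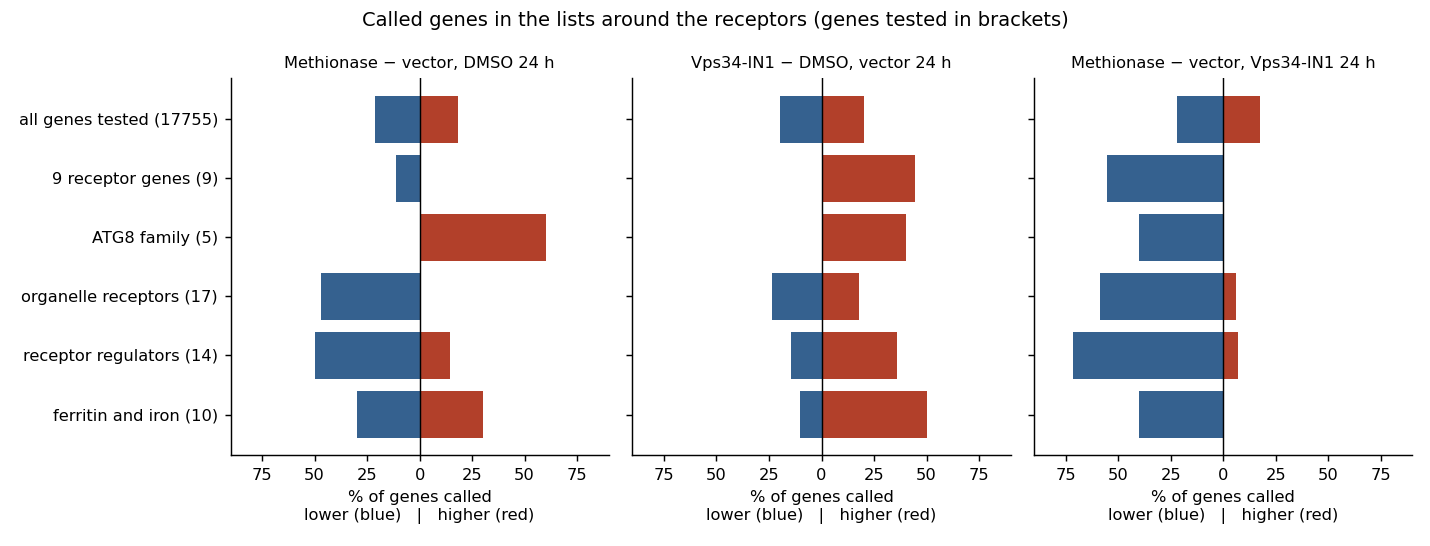
Share of tested genes called higher (red, to the right) and lower (blue, to the left) in 3 comparisons, in percent, for all genes tested, the 9 receptor genes and the 4 lists around them (number tested in brackets). With methionase in the drug the lower calls outnumber the higher ones in each list, including 10 of 17 organelle receptors and 10 of 14 regulators. Over all genes tested they do so too, with 22.2% lower and 17.3% higher.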

How the data were processed

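The authors deposited 1 table of variance-stabilised log2 values with 1 column per library and a lowest value of 5.45. The tools STAR 2.7.10b, featureCounts, DESeq2 and limma, and the build hg38, are listed per the submitters' processing notes, without their roles. The annotation, the strand setting and any gene filter are not given in the sources used here. The libraries were made with a dUTP kit, which marks strand, per the labels' protocols. Of 37097 lines, 1 named no gene, took at most 0.00216% of a library's reads and was left out.

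The transformation was undone to recover reads. All values (100%) lay within 0.01 of a whole read. Size factors ran from 0.892 to 1.1, and normalised reads are reads divided by them. No pair of libraries of the same group looked like a copy (chi-square per gene at least 2.51). Pairs from different groups were not compared in this way. Each member had at least 407 reads in each library.

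Genes with a mean at least 0.5 log2 above the lowest value (17755) were fitted on the deposited log2 scale (limma 3.58.1, R 4.3.3) by group means with a variance trend and Benjamini-Hochberg adjustment within each of 9 comparisons. No correction was made over the comparisons. Standard errors and 95% intervals come from this fit. Percent changes are ratios of mean normalised reads. The procedure was also run on simulated data with changes in a small set of genes in the methionase DMSO 24 h group only. Changes as wide as those in these data were not simulated, and the outcome is not reported here. Positions and exon lengths come from GENCODE gene models, and the promoter shown is the RefSeq start nearest to a principal transcript.

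Members and lists were chosen with earlier results of these data known. All 9 members are named. From each list, up to 2 called genes per direction and comparison with the lowest adjusted p were named, for the 5 comparisons of vector or drug. Outside this rule, the regulators TBK1, TANK, USP8 and KEAP1 were each given in both methionase comparisons at 24 h. For the interaction with the drug, the counts of called genes of each list are given, with values for some genes. For each member the protein-coding gene with the highest Pearson r was named, except that the one for CALCOCO1 is not reported here. Alternatives were no filter, a stricter filter at 1 log2 (14322 genes), quantile normalization, equal library medians, no variance trend, only the groups compared, a replicate block, voom on the recovered reads, and each of the 18 libraries left out. They were applied to the members and to the counts over all genes, and not to the lists. The labels give the same batch for all libraries.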

Additional observations from a re-analysis of the deposited data

Results flagged for a closer look

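The effect of Vps34-IN1 differed between empty vector and methionase cells, by a test of the difference itself, for 3 of the 9 receptor genes, where 21.8% of all genes were called in either direction and 11.9% lower. For SQSTM1 the interaction was -0.36 ± 0.08 log2 (SE, adjusted p = 0.00362), for NBR1 -0.32 ± 0.08 (adjusted p = 0.005971) and for TAX1BP1 -0.37 ± 0.11 (adjusted p = 0.01443). In empty vector cells 3 of 3 drug libraries lay above all DMSO libraries for each of the 3 genes, while in methionase cells the drug and DMSO libraries overlapped. Over all genes tested, the drug and DMSO libraries did not overlap for 52.4% in empty vector cells and for 19.6% in methionase cells. The overlap alone therefore does not set these genes apart. All 3 interactions were called in each of the 8 alternative settings and in each of the 18 fits without a library. The largest adjusted p in those fits was 0.0207 for SQSTM1, 0.02521 for NBR1 and 0.04728 for TAX1BP1. The share of reads on mitochondrial rRNA also differed between these groups, and its part in the interaction was not tested.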

How the results depend on the processing

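Under 8 alternative settings and 18 fits without a library, no called difference of a receptor gene changed sign. Of 2106 values, 24 lost a call and 37 gained one, and 55 that were called in neither fit changed sign. Counts of called receptor genes that moved by over 1.5 times were as follows, and the cause was not tested. Methionase in DMSO at 24 h, 1 as reported, gave 2 with the stricter filter and with only the groups compared, and 3 with quantile normalization and with equal library medians. Methionase in the drug, 5 as reported, gave 3 with quantile normalization. Methionase at 12 h, 0 as reported, gave 1 with only the groups compared. Empty vector cells at 24 h against 12 h, 2 as reported, gave 1 with no filter, with quantile normalization and with no variance trend, and 4 with only the groups compared. The methionase by time interaction, 0 as reported, gave 1 with the stricter filter, with voom, with only the groups compared and with the replicate block. Over all genes tested, methionase at 12 h called 385 as reported and 178 with no filter, 185 with quantile normalization, 247 with no variance trend and 1561 with only the groups compared. Empty vector cells at 24 h against 12 h called 2039, and 1290 with no filter and 3507 with only the groups compared. The drug in methionase cells called 1408, and 296 with only the groups compared.

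Without 1 library at a time, the counts ran from 0 to 1 for methionase at 12 h, 1 to 3 at 24 h in DMSO and 3 to 5 in the drug. They ran from 4 to 5 for the drug in empty vector cells and 0 to 1 in methionase cells. For 24 h against 12 h they ran from 0 to 2 with empty vector and 1 to 4 with methionase. The methionase by drug interaction gave 3 to 4 and the time interaction 0 to 1. The counts over all genes moved more. Methionase at 12 h called between 18 (without methionase DMSO 12 h replicate 2) and 685 genes (without methionase Vps34-IN1 replicate 3), with 62 without empty vector DMSO 12 h replicate 3 and at most 238 without any one of the 12 h libraries. Empty vector cells at 24 h against 12 h called between 798 (without empty vector DMSO 24 h replicate 1) and 2617, with 833 and 1028 without empty vector DMSO 12 h replicate 3 or 2 and 1256 without empty vector DMSO 24 h replicate 3. The drug in methionase cells called 860 without methionase DMSO 24 h replicate 3. The time interaction, 2071 as reported, called 1276 without methionase DMSO 12 h replicate 1 and 1325 without empty vector DMSO 24 h replicate 1. The background shares printed for these comparisons move with these counts.

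Replicate numbers did not pair the libraries across all groups. For empty vector DMSO 12 h with empty vector Vps34-IN1, the same-numbered correlations were all positive (0.32, 0.3 and 0.008). For empty vector with methionase in DMSO at 12 h they were all negative (-0.076, -0.04 and -0.044). Pairing in only a part of the groups was not tested. Of 45 pairs of same-numbered libraries, 13 had a correlation of deviations over 0.1, with a range from -0.308 to 0.352. With the replicate block, TAX1BP1 lost its call for methionase in the drug (adjusted p = 0.05153), and TOLLIP gained a call for the drug in empty vector cells (0.04969) and for the time interaction (0.03575). The block changed no other call of a receptor gene.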
